A study of Arabidopsis thaliana with 16 samples.

Results

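The MIR172 family of Arabidopsis thaliana comprises 5 annotated loci, which were selected by their gene identifiers: MIR172a (AT2G28056), MIR172b (AT5G04275), MIR172c (AT3G11435), MIR172d (AT3G55512) and MIR172e (AT5G59505). They are 5 of the 325 microRNA (miRNA) genes and of the 65386 features of the small RNA table, and all 5 passed the filter on low values, a mean of 1 RPM or more over the libraries, which left 17020 features to test. RPM is reads per 1000000 reads assigned to features in a library, and every RPM given here is the sum of the columns for reads of 21, 22, 23 and 24 nt. The small RNAs had been recovered by RNA immunoprecipitation (IP) of GFP-tagged Argonaute proteins, which carry small RNAs to their targets, and the family was compared between 2 ages and between each IP and its controls.

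The AGO5 IP came from pAGO5::GFP-AGO5 plants, the AGO9 IP from pAGO5::GFP-AGO9 plants and the GFP-only IP from p35S::GFP plants, all of them in the col-0 background. AGO9 was thus expressed from the AGO5 promoter, and the GFP-only control from a broadly active viral promoter. Input RNA, taken without an IP, came from the AGO5 line in replicate 1 and from the AGO9 line in replicate 2 at both ages. Plants were grown on soil with 16 h of light and 8 h of dark. The day 35 libraries were made from inflorescence meristems, flower meristems and young buds, and the day 7 libraries from shoot apices, so age and tissue change together and cannot be told apart. Each of the 8 groups had 2 libraries, 16 in all. The 2 input libraries of each age came from different lines. For the other 6 groups nothing in the labels says whether the libraries came from separate plants, so p-values measure only the spread between these libraries. In such bulk samples, fewer cells of a type and less RNA per cell cannot be told apart.

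The miR172 family is a conserved plant miRNA family that represses AP2-like transcription factor genes, both by cutting their mRNAs and by blocking their translation. It is known for its rise as a plant matures, opposite to miR156, and for restricting AP2, a floral organ identity gene, in flowers. In the age pathway miR156 represses SPL transcription factors, and SPL9 in turn activates MIR172b. Most plant miRNAs act through AGO1, and Argonautes favour different bases at the first position of the small RNA.

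The 3p mature sequences are shown because several loci hold the same one, which limits how far their reads can be told apart. They were read from TAIR10.1 at the coordinates of the RefSeq annotation, and capitals mark the seed, bases 2 to 8.
miR172a: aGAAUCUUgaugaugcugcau
miR172b-3p: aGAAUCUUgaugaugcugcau
miR172c: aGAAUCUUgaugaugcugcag
miR172d-3p: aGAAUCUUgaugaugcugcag
miR172e-3p: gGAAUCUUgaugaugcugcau
All 5 share the seed GAAUCUU. Counting from the 5′ end, miR172c and miR172d differ from miR172a by U21G, and miR172e differs from it by A1G. The sequence of miR172a and miR172b occurs at 2 places in the genome, that of miR172c and miR172d at 2 places, and that of miR172e at 1 place. The annotation's note on MIR172e gives its mature sequence without the first base, which would shift its seed.

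The 5p strands, released from the opposite arm of the hairpin, are annotated for 3 loci, and here MIR172b and MIR172e share 1 sequence.
miR172b-5p: gCAGCACCauuaagauucac
miR172e-5p: gCAGCACCauuaagauucac
miR172d-5p: gCAACAUCuucaagauucaga
The table gives 1 value per locus and size and no positions within a locus, so 3p and 5p reads cannot be separated.

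The loci lie on 3 chromosomes and no other annotated feature overlaps them. MIR172a is at chr2:11942914-11943015 on the minus strand and MIR172b at chr5:1188207-1188301 on the minus strand. MIR172c is at chr3:3599776-3599908 on the minus strand, MIR172d at chr3:20587904-20588027 on the plus strand and MIR172e at chr5:23988472-23988596 on the plus strand. Of the 82 windows of 21 bases in MIR172a, 5 occur exactly in MIR172b, 3 in MIR172c, 2 in MIR172d and 1 in MIR172e. In the 113 windows of MIR172c, 4 occur exactly in MIR172d and 0 in MIR172e. Counts were often equal between loci, and the second GFP-only library at day 7 had 39 reads at each of the 5. The loci are therefore not independent measurements, and an RPM at one locus may include reads that fit another.

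AP2-like mRNAs carry the complement of miR172, and the best site of each of the 3 that were tested lies in a coding exon. Capitals mark the bases that equal the exact complement of miR172a, so a G opposite a U is counted as a difference.
AP2: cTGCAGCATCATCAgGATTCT
TOE1: caGCAGCATCATCAgGATTCT
TOE2: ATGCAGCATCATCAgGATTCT
The AP2 site is at chr4:17403019-17403039 on the plus strand. It differs from the complement of miR172a at 2 bases but from that of miR172c and miR172d at 1. TOE2, another AP2-like repressor of flowering, has its site at chr5:24210889-24210909 on the plus strand. That site differs from the complement of miR172a at 1 base and from that of miR172e at 2. The TOE1 site, at chr2:12226233-12226253 on the minus strand, differs from the complement of miR172a at 3 bases.

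Depth ranged from 3578524 to 99594348 read assignments per library, and 3 reads, taken as the floor, were worth 0.0301 to 0.838 RPM. Reads at miRNA genes made up 0.222% to 31.5% of a library and reads at tRNA, rRNA and other structural or organellar features 0.156% to 37.4%. The 2 GFP-only libraries at day 35 stood apart, with 39.8% and 53.5% of the tested features at 0. Small RNA reads do not measure tissue marker mRNAs, so the tissue labels were not checked. The IP labels were set beside known small RNA partners. MIR845a, a known AGO5 partner, had 17295 and 11957 RPM in the AGO5 IP at day 35, against 413 and 117 RPM in the GFP-only IP, but 16.9 and 9.07 RPM against 69.0 and 28.2 RPM at day 7. MIR839, a known AGO9 partner, had 179 and 438 RPM in the AGO9 IP at day 35, against 18.2 and 27.2 RPM in the GFP-only IP, but 0.305 and 0.0602 RPM against 0 and 1.42 RPM at day 7. MIR829, another known AGO9 partner, had 91.2 and 27.6 RPM in the AGO9 IP at day 35, against 4.19 and 5.53 RPM in the GFP-only IP, but its AGO5 IP values of 133 and 40.0 RPM overlapped those of the AGO9 IP. At day 7 MIR829 had 29.3 and 18.6 RPM in the AGO9 IP, against a mean of 1.78 ± 0.777 RPM in the GFP-only IP (SD, n = 2). MIR822, also a known AGO9 partner, was listed at 0 in every library.

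In input RNA all 5 loci had more reads at day 35 than at day 7, and no locus overlapped between the ages. With so few libraries per group, a lack of overlap can arise by chance, and the 5 loci share reads. The share of all tested features without overlap was not computed, here or for the comparisons below. Lack of overlap is therefore given as a description only. MIR172a had 74.1 and 48.4 RPM at day 35, against 10.9 and 14.6 RPM at day 7. MIR172b, the locus that SPL9 activates, had 103 and 92.3 RPM at day 35, against 18.7 and 18.8 RPM at day 7. The replicates of MIR172b lay close together at each age, and its day 35 mean was 5.20 times its day 7 mean.

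MIR172c had 68.8 and 49.0 RPM at day 35, against 8.15 and 10.9 RPM at day 7. MIR172d had 77.7 and 64.8 RPM at day 35, against 8.15 and 11.0 RPM at day 7. These loci share a mature sequence and were nearly equal at day 7. MIR172e had 68.6 and 66.1 RPM at day 35, against 17.6 and 17.3 RPM at day 7. The ratio of means over the 5 loci was 3.86 (MIR172e) to 7.45 (MIR172d), and the same separation held per 1000000 miRNA-gene reads, where all 5 loci were also higher at day 35 without overlap.

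The limma test on log2(RPM + 1) across all 16 libraries nevertheless called 0 of the 5 loci in input, where 16.6% of all tested features were called in either direction. The log2 differences, day 35 minus day 7, were 2.16 for MIR172a, 2.32 for MIR172b, 2.50 for MIR172c, 2.78 for MIR172d and 1.89 for MIR172e, with SEs of 0.79 to 0.99. Limma's adjusted p ranged from 0.0571 (MIR172d) to 0.168 (MIR172a). An unadjusted p under 0.05 was found at 4 of the 5 loci, and at 5104 of the 17020 tested features. With limma fitted to the 4 input libraries alone, all 5 were called higher, while edgeR and DESeq2 on the recovered reads called 0 each. The share of all tested features called in the fit to the 4 input libraries was not computed. Without the 2 GFP-only libraries at day 35, 1 locus was called.

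**Figure D1:**
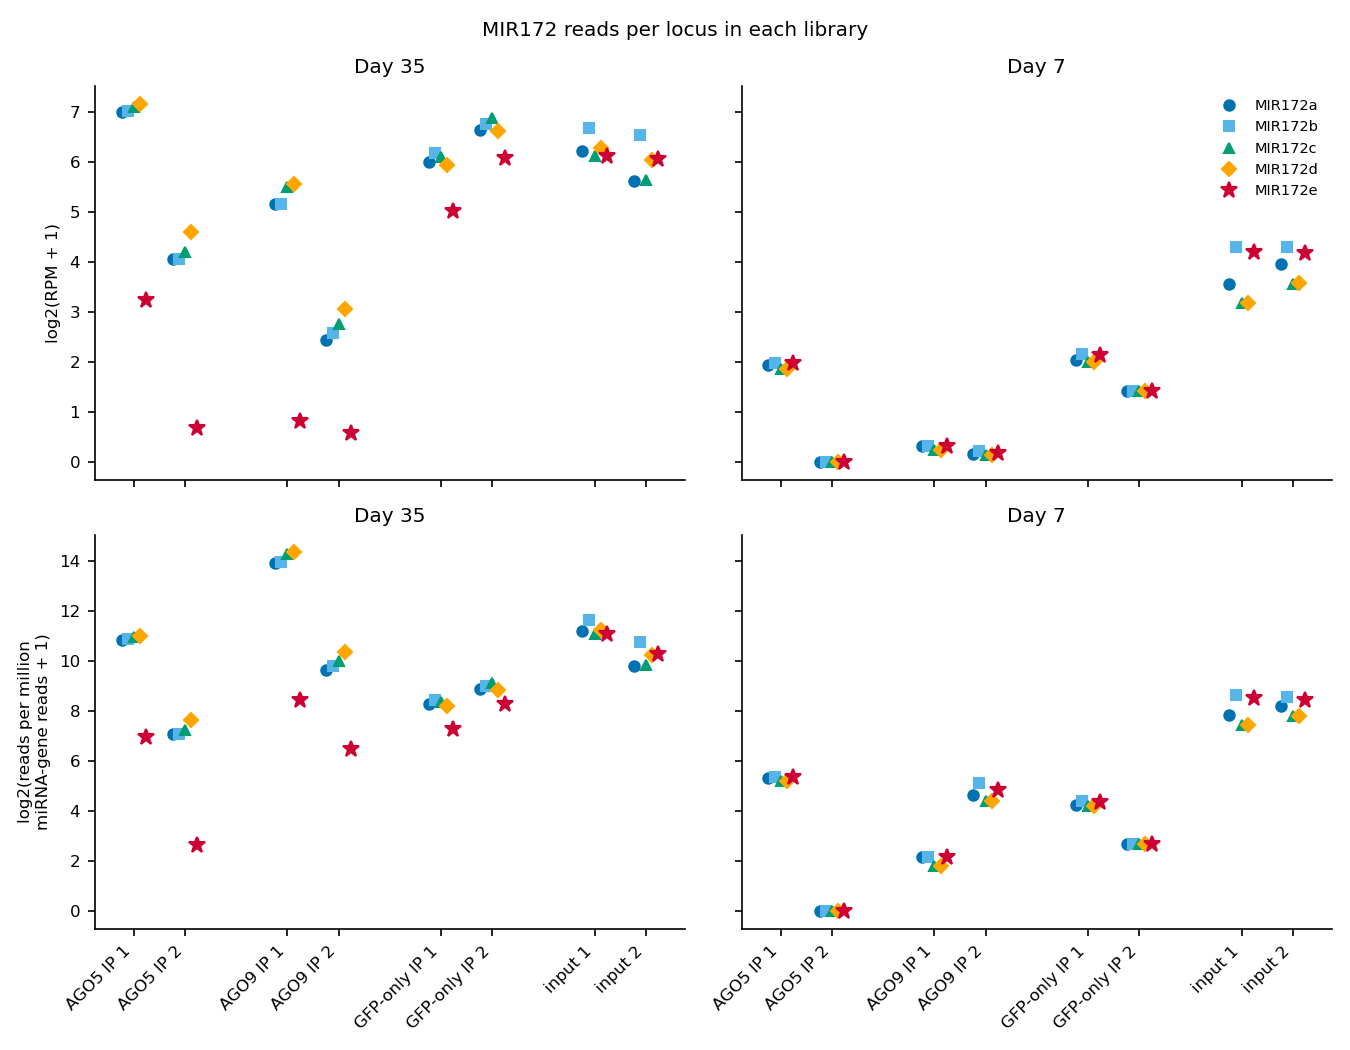
Reads at the 5 MIR172 loci in each library, as log2(RPM + 1) in the upper row and as log2 of reads per 1000000 miRNA-gene reads plus 1 in the lower row, with day 35 on the left and day 7 on the right; each marker is 1 locus in 1 library. MIR172e lies below the other 4 loci in the AGO5 and AGO9 IPs at day 35, and the input libraries lie higher at day 35 than at day 7 at all 5 loci.

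In the AGO5 IP, MIR172a to MIR172d were higher at day 35 than at day 7, whereas MIR172e was not called. MIR172a had 128 and 15.8 RPM in the AGO5 IP at day 35, against 2.85 and 0 RPM at day 7. MIR172b had 129 and 15.8 RPM at day 35, against 2.95 and 0 RPM at day 7. MIR172a and MIR172b share their mature sequence, and each had 181 reads in the second day 35 library.

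MIR172c had 137 and 17.5 RPM in the AGO5 IP at day 35, against 2.65 and 0 RPM at day 7. MIR172d had 143 and 23.4 RPM at day 35, against 2.65 and 0 RPM at day 7. MIR172e had 8.48 and 0.610 RPM at day 35, the second value being 7 reads, against 2.95 and 0 RPM at day 7. The first 4 loci did not overlap between the ages and MIR172e did. The second AGO5 library at day 7 had 0 reads at each of the 5 loci among 73734505 assignments, which allows up to 0.0407 RPM.

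Limma called 4 of the 5 loci higher in this comparison, where 7.59% of all tested features were called higher. The log2 difference was 4.57 ± 0.99 (SE) for MIR172a with an adjusted p of 0.00979 by limma, 4.56 ± 0.97 for MIR172b with 0.00897, 4.72 ± 0.98 for MIR172c with 0.00763 and 4.95 ± 0.91 for MIR172d with 0.00336. MIR172e differed by 0.98 ± 0.79 with an adjusted p of 0.498, and its ratio of means was 3.08. The replicates were far apart: MIR172a was 8.13 times higher in the first than in the second AGO5 library at day 35. Without the first AGO5 library at day 35, or without the second at day 7, 1 locus was called, and with limma fitted only to the 4 AGO5 libraries 0 were called.

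In the AGO9 IP the same 4 loci were called higher at day 35. MIR172a had 34.8 and 4.48 RPM at day 35, against 0.251 and 0.120 RPM at day 7. MIR172b had 35.2 and 4.98 RPM at day 35, against 0.251 and 0.171 RPM at day 7. All 4 of these day 35 values lay above the day 7 values, which were 12 to 17 reads each.

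MIR172c had 44.6 and 5.85 RPM in the AGO9 IP at day 35, against 0.179 and 0.10 RPM at day 7. MIR172d had 46.3 and 7.34 RPM at day 35, against 0.179 and 0.10 RPM at day 7. Of the AGO9 libraries at day 35 the first was the higher at every locus, by 7.77 times at MIR172a. MIR172e had 0.772 and 0.498 RPM at day 35, or 9 and 4 reads, against 0.251 and 0.141 RPM at day 7, or 14 reads each, so it was under 1 RPM in all 4 libraries although the ages did not overlap.

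By limma 4 of the 5 loci were higher in the AGO9 IP at day 35, against a background of 7.57% of all tested features. The log2 differences were 3.56 ± 0.99 (SE) for MIR172a, 3.60 ± 0.97 for MIR172b, 3.96 ± 0.98 for MIR172c and 4.12 ± 0.91 for MIR172d. Their adjusted p-values by limma ran from 0.00622 (MIR172d) to 0.0210 (MIR172a). MIR172e differed by 0.45 ± 0.79, with an adjusted p of 0.771. Limma averaged log values after 1 RPM was added, and both steps make these differences smaller than the ratios of means. Those ratios were 106 for MIR172a, 192 for MIR172d and 3.24 for MIR172e. Without the first AGO9 library at day 35, 0 loci were called, and without either AGO9 library at day 7, 1 locus was called. Reads of 21 nt alone gave 0 calls.

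The GFP-only IP, the background of both Argonaute IPs, also had more MIR172 reads at day 35. Here MIR172a had 63.2 and 99.5 RPM at day 35, against 3.11 and 1.68 RPM at day 7. MIR172b had 71.8 and 108 RPM at day 35, against 3.48 and 1.68 RPM at day 7. MIR172c had 67.6 and 117 RPM at day 35, against 3.04 and 1.68 RPM at day 7. Again no library of one age reached into the range of the other.

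MIR172d had 60.9 and 98.3 RPM in the GFP-only IP at day 35, against 3.04 and 1.68 RPM at day 7. MIR172e had 31.6 and 66.6 RPM at day 35, against 3.40 and 1.68 RPM at day 7. All 5 loci were called higher by limma, where 17.2% of all tested features were called higher, with log2 differences from 3.77 ± 0.79 (SE; MIR172e) to 4.77 ± 0.98 (MIR172c) and adjusted p-values from 0.00335 to 0.00528. In contrast to the Argonaute IPs, MIR172e was among the loci called here. The calls were absent (0 loci) with edgeR, with limma on the 4 GFP-only libraries alone and per 1000000 miRNA-gene reads.

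More reads at day 35 were thus counted in IP libraries with and without an Argonaute. Neither change in IP enrichment between the ages was called. For AGO5 the log2 changes were 2.17 to 2.41 at MIR172a to MIR172d and -0.91 at MIR172e. For AGO9 they were 1.29 to 1.45 and -1.44. Their SEs were 1.12 to 1.41, so the lack of calls does not show that there was no change. For the AGO5 IP minus input, 0 of the 5 loci were called by limma, 0 had an unadjusted p under 0.05 and edgeR and DESeq2 called 0, where 0.488% of all tested features were called in either direction. For the AGO9 IP minus input, limma, edgeR and DESeq2 each called 0 loci and 0 had an unadjusted p under 0.05, where 1.91% of all tested features were called. With limma on only the libraries compared, 1 locus was called lower in that comparison.

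At day 35 neither Argonaute IP held more MIR172 reads per 1000000 assigned reads than its controls by the limma test, and MIR172e was lower in both. MIR172e had 8.48 and 0.610 RPM in the AGO5 IP, against 31.6 and 66.6 RPM in the GFP-only IP and 68.6 and 66.1 RPM in input. Its mean in the AGO5 IP was 10.8 times lower than in the GFP-only IP and 14.8 times lower than in input. Against the GFP-only IP the log2 difference was -3.59 ± 0.79 (SE) with an adjusted p of 0.00554 by limma, and against input it was -4.13 ± 0.79 with 0.00283. MIR172e was the only one of the 5 loci called lower in each of these comparisons, where 5.26% and 24.2% of all tested features were called lower.

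MIR172a to MIR172d overlapped between the AGO5 IP and both controls at day 35. Their 2 AGO5 libraries lay on either side of the controls, with 128 to 143 RPM in the first and 15.8 to 23.4 RPM in the second, against 60.9 to 117 RPM in the GFP-only IP and 48.4 to 103 RPM in input. The adjusted p-values of these 4 loci were at least 0.434 by limma. The MIR172e calls were lost with edgeR in both comparisons, with DESeq2 against input, and, against the GFP-only IP, per 1000000 miRNA-gene reads and with limma on only the libraries compared.

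The AGO9 IP at day 35 had fewer MIR172 reads per 1000000 assigned reads than both controls at every locus, with no overlap, and for MIR172a to MIR172d this depended on the scale, as given below. MIR172e had 0.772 and 0.498 RPM in the AGO9 IP, against 31.6 and 66.6 RPM in the GFP-only IP, a mean 77.3 times lower, and against 68.6 and 66.1 RPM in input, a mean 106 times lower. The log2 difference of MIR172e was -4.85 ± 0.79 (SE) against the GFP-only IP with an adjusted p of 0.000563 by limma, and -5.39 ± 0.79 against input with 0.00145. MIR172b was also called lower against the GFP-only IP, by a log2 difference of -2.60 ± 0.97 with an adjusted p of 0.0465. These are 2 of 5 loci against the GFP-only IP, where 6.50% of all tested features were called lower, and 1 of 5 against input, where 6.26% were. Of the 153 tested miRNA genes, 51.6% were called lower against the GFP-only IP and 29.4% against input. Their median log2 differences were -3.03 and -2.75, so a lower RPM in the AGO9 IP was common among miRNA genes. Against input the MIR172e call was lost with edgeR and per 1000000 miRNA-gene reads. Against the GFP-only IP the MIR172b call was kept in 7 of 16 alternatives and lost, for example, with edgeR, DESeq2, pseudocount 0.5, no filter or 21 nt reads alone.

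For MIR172a to MIR172d the direction against both controls depended on the scale. Reads at miRNA genes were 0.222% and 0.564% of the AGO9 libraries at day 35, against 20.6% and 21.2% of the GFP-only libraries. Per 1000000 miRNA-gene reads, MIR172a to MIR172d had 15668 to 20839 in the first AGO9 library and 793 to 1300 in the second, against 296 to 554 in the GFP-only IP, so that they were higher in the AGO9 IP without overlap. On that scale MIR172b differed by 3.14 on the log2 scale, and 0 loci were called by limma. MIR172e had 347 and 88.2 on the same scale, against 153 and 315 in the GFP-only IP, which overlap. Against input, MIR172a to MIR172d overlapped per 1000000 miRNA-gene reads, and their log2 differences, which ran from -1.74 to -2.74 in RPM, ran from 0.66 to 1.70 on that scale.

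The other day 35 comparisons gave no calls. Between the GFP-only IP and input, limma, edgeR and DESeq2 called 0 of the 5 loci and 0 had an unadjusted p under 0.05, where 45.6% of all tested features were called in either direction. In RPM the 2 groups overlapped at all 5 loci, whereas per 1000000 miRNA-gene reads all 5 were lower in the GFP-only IP without overlap, with log2 differences from -1.72 (MIR172c) to -2.89 (MIR172e) and 0 calls. Between the AGO5 IP and the AGO9 IP the counts were also 0 by limma, edgeR, DESeq2 and the unadjusted p, where 25.7% of all tested features were called. The libraries of the 2 IPs overlapped at every locus. Without the second AGO5 library at day 35, 2 loci were called higher in the AGO5 IP. These comparisons share the input or GFP-only libraries, and so do not give independent results.

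At day 7 the IP libraries held few MIR172 reads and all lay below input. At MIR172b the AGO5 IP had 2.95 and 0 RPM and the AGO9 IP 0.251 and 0.171 RPM, against 3.48 and 1.68 RPM in the GFP-only IP and 18.7 and 18.8 RPM in input. The AGO9 IP was lower than input at all 5 loci by limma, with log2 differences from -3.20 ± 0.98 (SE; MIR172c) to -4.03 ± 0.97 (MIR172b) and adjusted p-values from 0.00645 to 0.0318, where 9.48% of all tested features were called lower. In the AGO5 IP 2 loci were called lower than input, MIR172b by a log2 difference of -3.31 ± 0.97 with an adjusted p of 0.0360 by limma and MIR172e by -3.22 ± 0.79 with 0.0190, where 10.4% of all tested features were called lower. The GFP-only IP itself was called lower than input at 1 locus, MIR172e, by -2.42 ± 0.79 with an adjusted p of 0.0434, where 26.0% of all tested features were called lower.

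Those day 7 calls were lost with edgeR, with which 0 loci were called in each of the 3 comparisons. Leaving out 1 library changed them too: without any one of the AGO9 or input libraries at day 7, 0 or 1 locus was called for the AGO9 IP against input, and for the AGO5 IP 0 to 4 loci were called.

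Against the GFP-only IP at day 7, neither Argonaute IP was called at any locus by limma. In the AGO5 IP 0 loci were called by limma, edgeR and DESeq2 and 0 had an unadjusted p under 0.05, where 25.9% of all tested features were called in either direction. In the AGO9 IP limma called 0 loci and 0 had an unadjusted p under 0.05, where 65.1% of all tested features were called. In RPM the AGO9 values were below the GFP-only values at every locus, without overlap, by 12.2 to 16.9 times in the means. Per 1000000 miRNA-gene reads all 5 loci overlapped, with log2 differences from -0.35 (MIR172c) to 0.11 (MIR172b) and 0 calls. For this comparison edgeR called 1 locus lower and DESeq2 called 5, and limma on only the libraries compared called 5. The share of all tested features called by these alternatives was not computed. Between the AGO5 IP and the AGO9 IP at day 7, limma and edgeR called 0 loci, 0 had an unadjusted p under 0.05 and DESeq2 called 2 higher, where 25.0% of all tested features were called; the AGO5 value rests on 1 library, since the other had 0 reads.

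**Figure D2:**
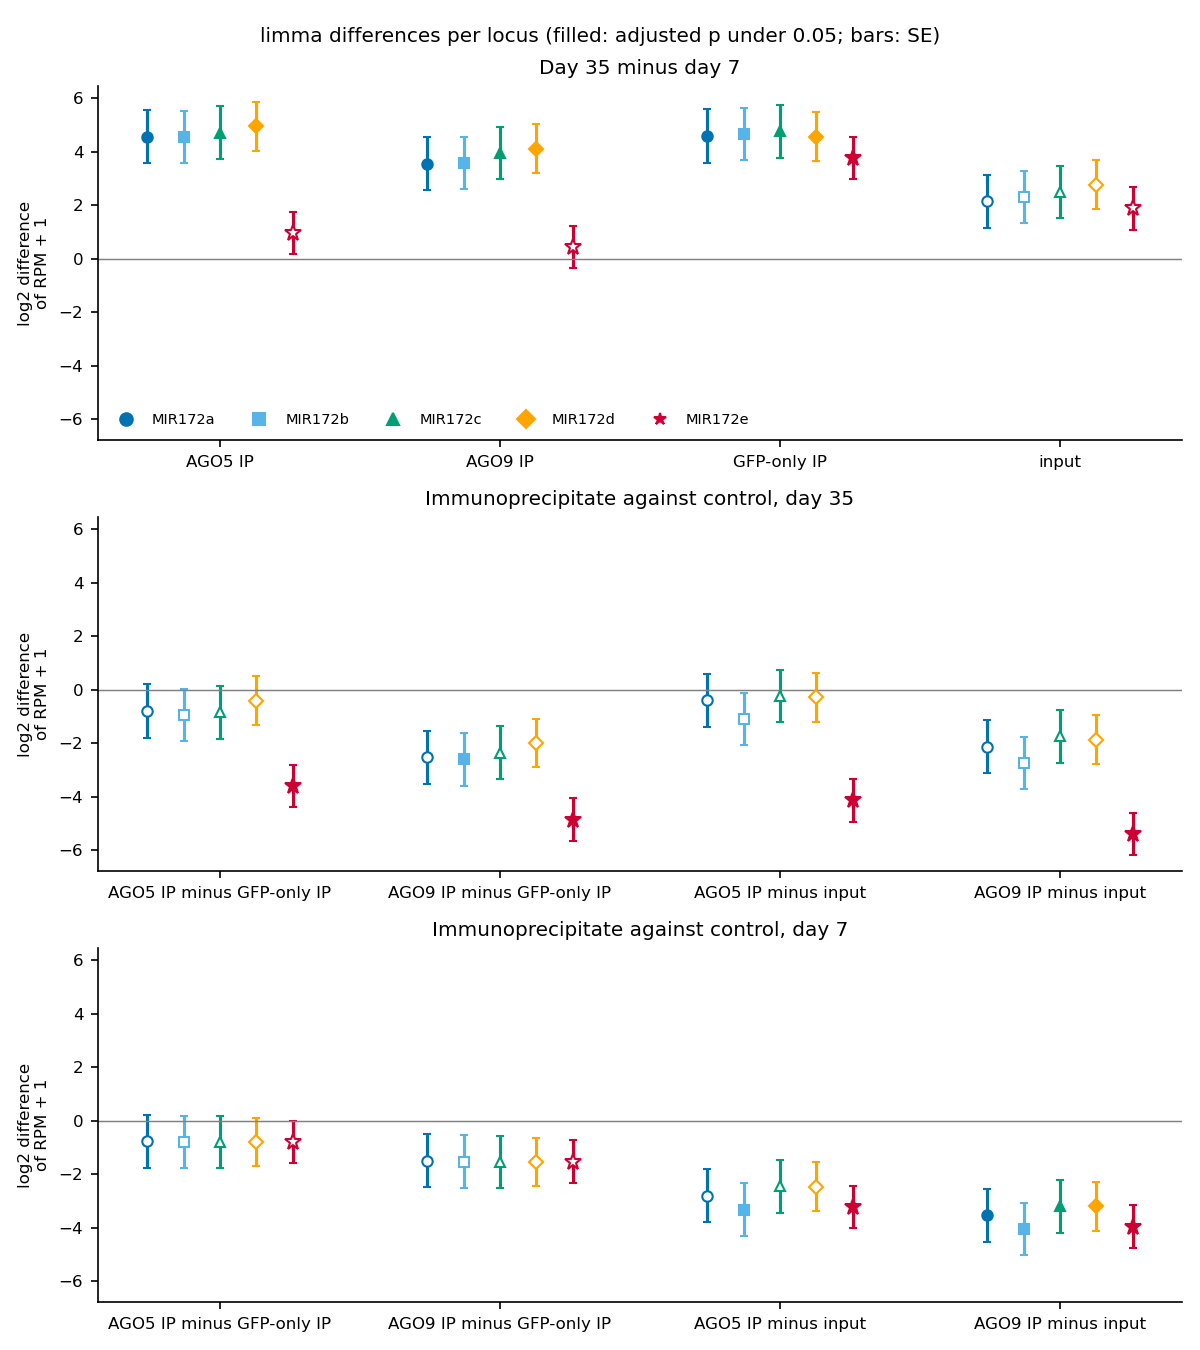
Differences in log2(RPM + 1) from limma for each locus, with SE bars; filled markers have an adjusted p under 0.05. Top, day 35 minus day 7 in each kind of library; middle and bottom, each Argonaute IP minus its control at day 35 and day 7. MIR172e has the smallest difference between the ages in the AGO5 and AGO9 IPs (0.98 and 0.45) and is the lowest of the 5 loci in the IPs at day 35.

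Group means over MIR172a to MIR172d can be ordered. The AGO9 IP at day 7 was lowest (0.140 to 0.211 RPM), followed by the AGO5 IP at day 7 (1.33 to 1.48 RPM) and the GFP-only IP at day 7 (2.36 to 2.58 RPM), and then input at day 7 (9.53 to 18.8 RPM). The AGO9 IP at day 35 came next (19.6 to 26.8 RPM), and its 2 libraries lay on either side of input at day 7. The AGO5 IP (72.1 to 83.2 RPM), input (58.9 to 97.5 RPM) and the GFP-only IP (79.6 to 92.5 RPM) at day 35 had the highest means and overlapped.

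MIR172e departed from the other 4 loci in the day 35 Argonaute IPs. Its RPM was divided by the mean RPM of MIR172a to MIR172d within each library, a measure chosen after its values were seen, which does not depend on a library's scaling or on locus length when libraries are compared. The ratio was 0.0631 and 0.0337 in the AGO5 IP and 0.0192 and 0.0879 in the AGO9 IP at day 35, against 0.479 and 0.629 in the GFP-only IP and 0.849 and 1.04 in input. At day 7 it was 1.06 in the AGO5 library with reads, 1.17 and 1.14 in the AGO9 IP, 1.07 and 1.0 in the GFP-only IP and 1.53 and 1.25 in input. The 4 Argonaute libraries at day 35 were thus below every other library.

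In that ratio, day 35 lay below day 7 without overlap in the AGO9 IP, the GFP-only IP and input alike. With 2 libraries against 2, an exact two-sided permutation test cannot give a p under 0.333, and it gave 0.333 for each Argonaute IP against each control at day 35. The 4 ratios of the Argonaute IPs at day 35 rest on 142, 7, 9 and 4 reads at MIR172e. In these libraries most reads at MIR172a to MIR172d were therefore not also counted at MIR172e. Whether those reads are mature miR172 was not tested, since the table gives no read sequences.

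**Figure D3:**
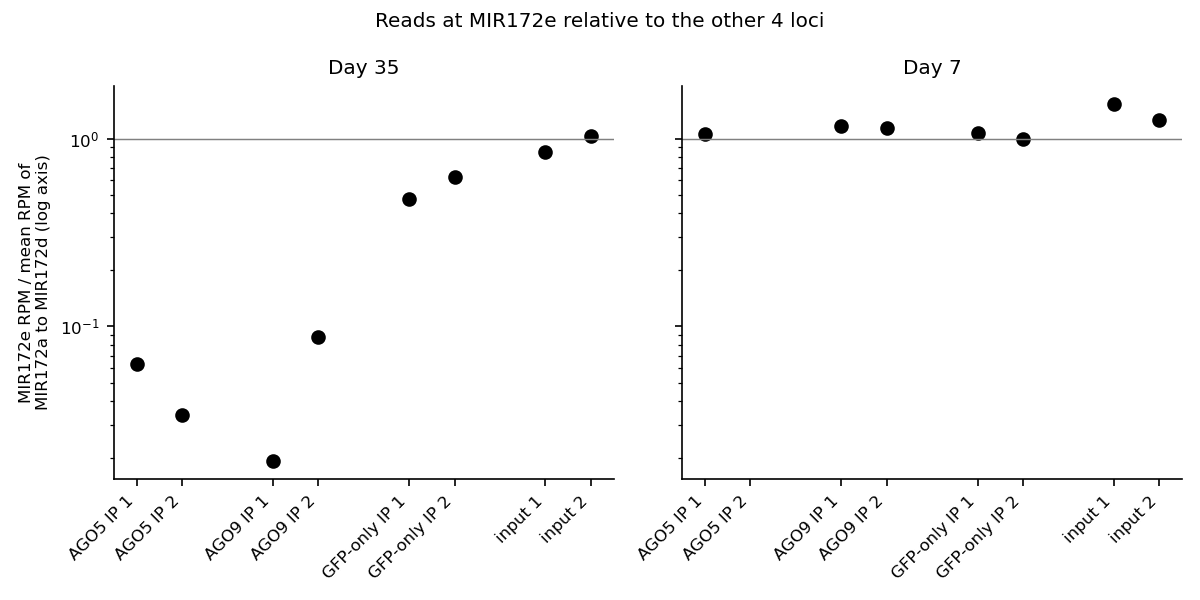
MIR172e RPM divided by the mean RPM of MIR172a to MIR172d in each library, on a log axis, with day 35 on the left and day 7 on the right; the grey line marks equal values, and the second AGO5 library at day 7 has no reads. The AGO5 and AGO9 IPs at day 35 lie between 0.0192 and 0.0879 and all other libraries at 0.479 or above.

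Over the 16 libraries the log2(RPM + 1) values of MIR172a to MIR172d correlated with each other at Pearson's r of 0.986 to 0.998, and with MIR172e at 0.718 to 0.811. These correlations describe loci that share libraries and reads.

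Most reads at the loci were 21 nt, the length of mature miR172, and the AGO9 IP at day 35 had the largest share of longer reads among groups of 2 libraries. Over the 5 loci, 85.5% (95% Wilson interval 83.8 to 87.0) and 79.6% (73.2 to 84.7) of the reads in the AGO9 IP at day 35 were 21 nt. The share was 96.2% and 94.2% in the AGO5 IP, against 97.7% and 94.2% in the GFP-only IP and 92.2% and 94.8% in input. At day 7 it was 100% in the AGO5 library with reads, 100% and 96.8% in the AGO9 IP, 100% in both GFP-only libraries and 95.6% and 94.5% in input. The AGO9 IP at day 35 lay below every other library. The exact two-sided permutation p was 0.333 for the AGO9 IP at day 35 against input, against the GFP-only IP and against the AGO9 IP at day 7, which is the smallest that 2 against 2 allows.

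The 22 nt reads in the AGO9 IP at day 35 lay mostly at MIR172c and MIR172d. Here 22.1% (95% Wilson interval 19.7 to 24.7) and 20.8% (14.1 to 29.4) of the reads were 22 nt, against 0% and 0% in the GFP-only IP, with upper bounds of 0.828% and 0.426%, and 5.13% and 2.60% in input. The AGO5 IP at day 35 had 5.14% and 7.46%. In the second AGO9 library at day 35, 8 of 76 reads at MIR172a and MIR172b and 6 of 106 at MIR172c and MIR172d were 23 nt, as were 2 of 4 at MIR172e. In the first, 4 of 816 reads at MIR172a and MIR172b and 11 of 1060 at MIR172c and MIR172d were. The GFP-only IP at day 35 also had 23 nt reads. They were 24 of 460 and 79 of 897 at MIR172c and MIR172d, and 0 of 483 and 36 of 864 at MIR172a and MIR172b. At MIR172a and MIR172b the 22 nt share was 2.45% and 0% in the AGO9 IP at day 35, against 0% in both GFP-only libraries and 9.75% and 6.54% in input. In the AGO5 IP at day 35 the 22 nt share at MIR172a and MIR172b was 2.41% and 0%. The 22 nt share was thus higher at MIR172c and MIR172d than at MIR172a and MIR172b in both Argonaute IPs at day 35. In input at day 35 it was lower at MIR172c and MIR172d. Any read counted at several loci enters these sums more than once and makes the intervals, which cover counting error only, too narrow.

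**Figure D4:**
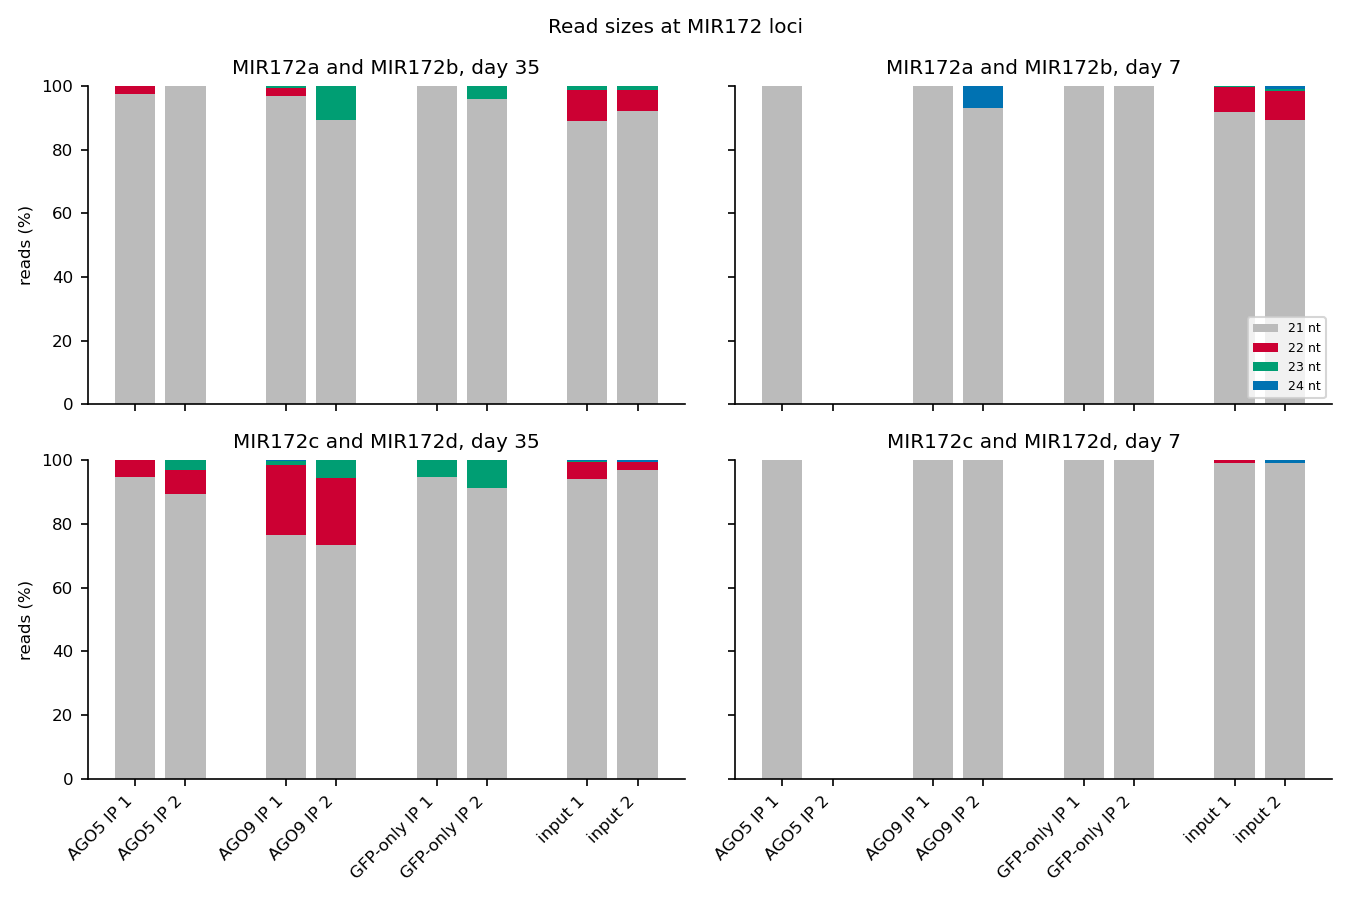
Share of reads of 21, 22, 23 and 24 nt, in percent, at MIR172a and MIR172b (upper row) and at MIR172c and MIR172d (lower row) in each library, with day 35 on the left and day 7 on the right; the second AGO5 library at day 7 has no reads. The 22 nt share at MIR172c and MIR172d is largest in the 2 AGO9 IP libraries at day 35, at 22.1% and 20.8%.

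Small RNA reads at the AP2-like target genes were examined beside the loci. Of the 6 genes, 3 were tested (AP2, TOE1 and TOE2), and TOE3, SMZ and SNZ, further AP2-like repressors, had means under 1 RPM. In input 1 of the 3, AP2, was higher at day 35, with 28.1 and 24.5 RPM at day 35 against 0.259 and 0.276 RPM at day 7 (log2 difference 4.43 ± 0.86 SE, limma's adjusted p 0.00695), where 11.2% of all tested features were called higher. TOE2 had 44.9 and 26.5 RPM in input at day 35, against 9.44 and 13.5 RPM at day 7, and was not called. These are reads of 21 to 24 nt assigned to a gene, not mRNA levels.

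Of the 3 tested genes, reads at AP2 followed MIR172a to MIR172d, reads at TOE2 followed MIR172e and reads at TOE1 followed neither. In the IP libraries at day 35, AP2 had 129 and 20.9 RPM in the AGO5 IP, 34.6 and 5.1 RPM in the AGO9 IP and 44.2 and 32.0 RPM in the GFP-only IP. The means of MIR172a to MIR172d in the same order were 134 and 18.1 RPM, 40.2 and 5.66 RPM, and 65.9 and 106 RPM. In the Argonaute IPs AP2 therefore had nearly the RPM of these loci in each of the 4 libraries. TOE2 had 8.90 and 2.27 RPM in the AGO5 IP, 0.772 and 0 RPM in the AGO9 IP and 20.7 and 65.4 RPM in the GFP-only IP, close to MIR172e in most of them.

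Over the 16 libraries AP2 correlated with MIR172d at Pearson's r of 0.917 and with MIR172e at 0.474, whereas TOE2 correlated with MIR172e at 0.970 and with MIR172d at 0.709. The relation did not hold at all levels: at day 7 input had 11.5 and 13.8 RPM as the mean of MIR172a to MIR172d but 0.259 and 0.276 RPM at AP2. TOE1 correlated with MIR172a to MIR172d at 0.141 to 0.212 and with MIR172e at -0.266. At day 35 TOE1 had 3.34 and 3.11 RPM in the AGO9 IP and 1.01 and 5.84 RPM in the AGO5 IP. Both GFP-only libraries had 0 RPM, where 3 reads were worth 0.838 and 0.721 RPM. Of the genes with means under 1 RPM, TOE3 had r of 0.299 to 0.374 with the loci, while SMZ and SNZ had -0.0912 to -0.419. The sites printed above differ from the complement of miR172c and miR172d by 1 base in AP2, and from that of miR172a and miR172b by 1 base in TOE2. The sources used here do not say whether counting used the strand, so reads of the miRNA and reads of its target at these sites cannot be told apart.

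**Figure D5:**
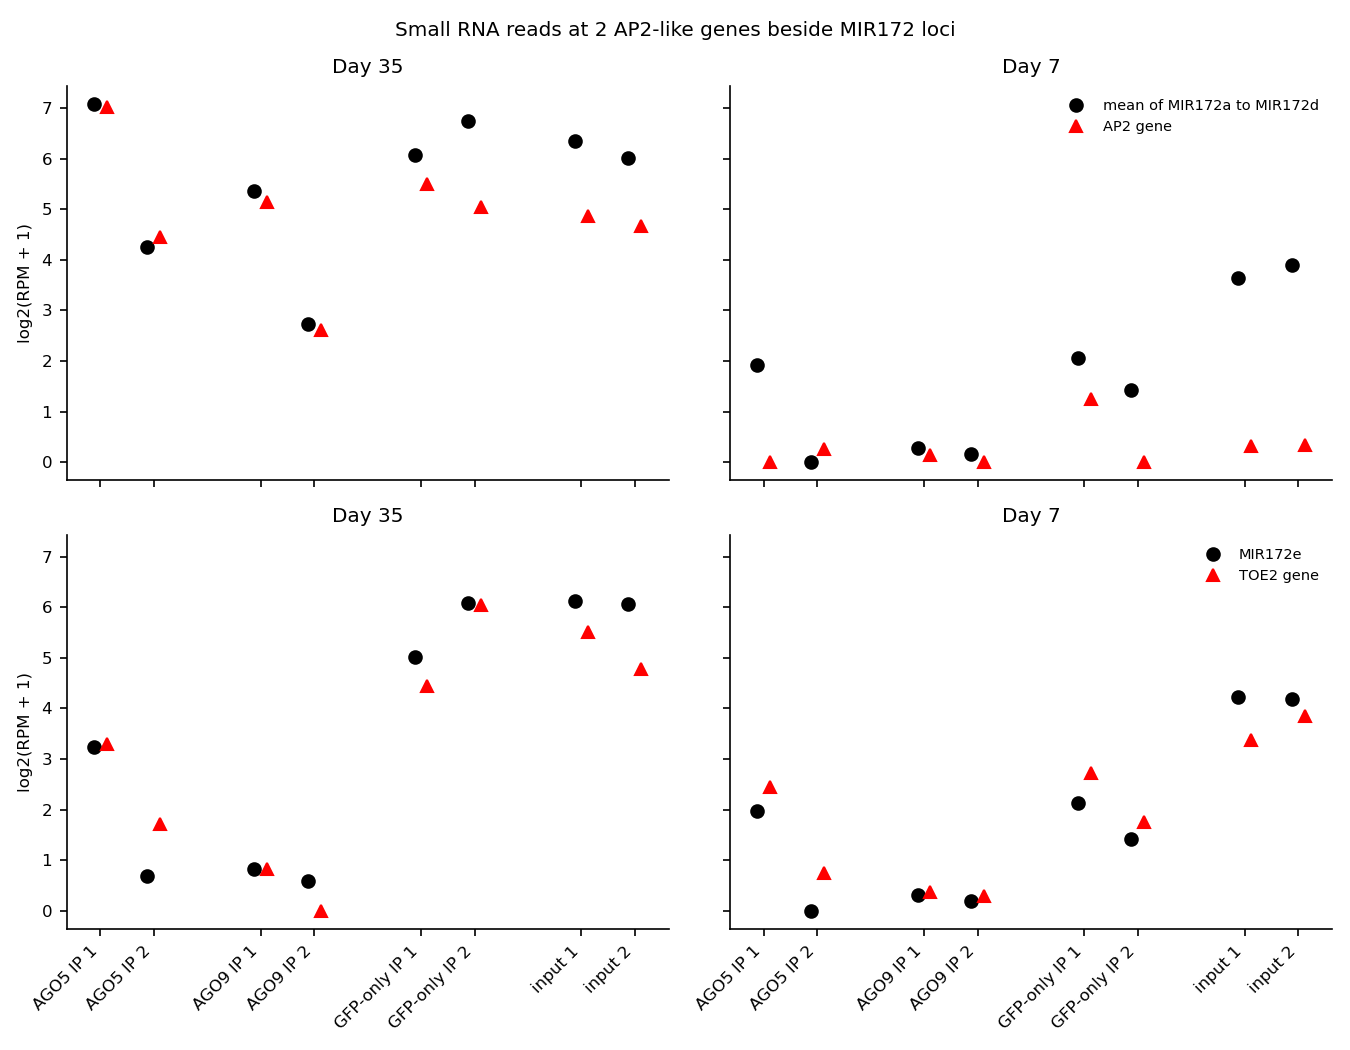
Log2(RPM + 1) of small RNA reads in each library at AP2 (red) beside the mean of MIR172a to MIR172d (black) in the upper row, and at TOE2 (red) beside MIR172e (black) in the lower row, with day 35 on the left and day 7 on the right. The red and black points lie close together in the AGO5 and AGO9 IPs at day 35, and AP2 is near 0 in input at day 7 while MIR172a to MIR172d are not.

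The MIR156 and MIR157 loci act upstream in the age pathway. Of 14 loci, 8 were tested and 6 (MIR156b, d, f, g, i and j) were listed at 0 in every library. In input 2 of the 8, MIR156a and MIR156c, were lower at day 35 and 0 were higher, where 5.44% of all tested features were called lower and 11.2% higher, with a median log2 difference of -3.41 over the 8, against 2.32 over the MIR172 loci. MIR156a had 23.1 and 38.8 RPM in input at day 35, against 557 and 518 RPM at day 7 (log2 difference -4.12 ± 1.17 SE, limma's adjusted p 0.0333). MIR157c, the highest of the list by mean, had 61.6 and 180 RPM in input at day 35, against 1057 and 1018 RPM at day 7, and was not called.

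The same 8 loci were all lower at day 35 in the AGO9 IP, where 16.5% of all tested features were called lower. In the GFP-only IP 2 were lower, against 10.3% of all tested features. In the AGO5 IP 0 were called by limma and 0 had an unadjusted p under 0.05, where 14.5% of all tested features were called in either direction. MIR157c had 226 and 176 RPM in the AGO5 IP at day 35, against 497 and 80.7 RPM at day 7, which overlap. In the AGO9 IP it had 1.29 and 8.58 RPM at day 35, against 413 and 25.8 RPM at day 7. Of the 11 SPL genes targeted by miR156, 6 were tested and 0 were called in input by limma, where 16.6% of all tested features were called in either direction. An unadjusted p under 0.05 was found at 4 of the 6, and at 5104 of the 17020 tested features. The log2 differences of the 6 ran from -3.12 to 2.48, with a median of -2.78.

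The 5 other miRNA genes most like the family were taken from 96 with a mean of at least 10 RPM, by Pearson's r over the 16 libraries between log2(RPM + 1) and the mean of the 5 loci. They were MIR867 (0.845), MIR771 (0.797), MIR859 (0.752), MIR5643a (0.749) and MIR858a (0.728). In input, MIR867 had a log2 difference between day 35 and day 7 of 7.41 ± 0.80 (SE; limma's adjusted p 9.35e-05). MIR771 differed by 3.60 ± 0.64 (0.00385) and MIR859 by 3.57 ± 0.82 (0.0163), while MIR5643a and MIR858a were not called. All 5 genes were called higher at day 35 with AGO5, with limma's adjusted p from 0.000544 (MIR771) to 0.0382 (MIR858a). With AGO9 only MIR867 was, and with GFP alone only MIR771 and MIR867 were. At day 35 all but MIR5643a were called lower in the AGO9 IP than in either control. Limma's adjusted p ran from 2.32e-05 to 0.0242 against GFP alone and from 0.00612 to 0.0182 against input. Of the tested miRNA genes, 51.6% and 29.4% were called lower there. The correlations are across libraries that differ in depth and miRNA content. The genes were picked in the same libraries, so their differences between ages or groups are not independent of that choice. Their p-values are descriptive.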

How the data were processed

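Reads of 21 to 24 nt were deposited as RPM per feature and size by the authors. Per the submitters' processing notes, cutadapt 1.18, Bowtie2 2.3.5.1, featureCounts and Subread 2.0.1 were used with TAIR10; roles, strand setting and multiple mapping are not given in the sources used here. All 16 libraries' columns were matched by title. The RPM values of a library were multiples of what 1 read is worth (100% of values in each), so reads were recovered; in the second AGO9 library at day 7 that step lies near a rounding unit and is less certain. The deposited combined column of the first AGO5 library at day 35 was treated as a score, because it summed to 59698.5 instead of 1000000; the 4 size columns were summed throughout.

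Features with a mean of 1 RPM or more were compared with limma 3.58.1 in R 4.3.3, by a fit to log2(RPM + 1) with 8 groups, a trend and Benjamini-Hochberg adjustment at 0.05; RPM values were tested in this way because they are not counts, and edgeR 4.0.16 (quasi-likelihood) and DESeq2 1.42.0 on recovered reads were alternatives. Data were simulated for the AGO5 IP against input at day 7, with 200 of 17020 features changed 16-fold. Limma and edgeR each recovered 100% of these and called 8 unchanged features. This recovery holds for the simulated data only. It does not measure how many changes would be found in the real libraries. There the AGO5 replicates at day 7 had a chi-square per degree of freedom of 425. Exact permutation tests took every split of the libraries, and Wilson intervals used scipy. Replicates differed beyond sampling noise in every group (chi-square per degree of freedom 4.75 to 425). All 5 loci were named; pathway lists were given by counts and their highest members. The members and lists were chosen with earlier results of these data known. Alternatives, one at a time, were another pseudocount (0.5), filter, normalization, miRNA-only scale, size column, set of libraries and a replicate block. Intervals and floors cover counting error only; whether molecular identifiers were used is not given in the sources used here.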

Additional observations from a re-analysis of the deposited data

How the results depend on the processing

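The counts of MIR172 loci called depended on the test and on single libraries. The share of all tested features called was computed for the main fit only, so the counts below have no such share beside them. For the comparison of day 35 with day 7, edgeR gave 2 loci in the AGO5 IP and 0 in the GFP-only IP. The deposited combined column gave 1 in the AGO5 IP. Limma on only the libraries compared gave 0 in the AGO5 IP, 0 in the GFP-only IP and 5 in input. The 21 nt column gave 0 in the AGO9 IP, and the miRNA-only scale gave 0 in the GFP-only IP. In input, the filter at 10 RPM gave 1 locus and the fit without the 2 GFP-only libraries at day 35 gave 1. Leaving out 1 library gave 1 to 4 loci for AGO5 and 0 to 4 for AGO9.

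At day 7, the AGO5 IP against input gave 1 locus without a filter, 1 with the combined column, 5 with only the libraries compared, 4 without the GFP-only libraries of day 35, 0 to 4 without 1 library, and 0 with edgeR, DESeq2, the 21 nt column and the miRNA-only scale. The AGO9 IP against input gave 2 with the 21 nt column, 0 on the miRNA-only scale, 0 with edgeR and 0 to 1 without 1 library. The GFP-only IP against input gave 5 with only the libraries compared, 2 without the GFP-only libraries of day 35, 0 without any 1 library, and 0 with pseudocount 0.5, no filter, quantile normalization, the miRNA-only scale, structural RNA removed, edgeR, DESeq2, the 21 nt column and the combined column. The AGO9 IP against the GFP-only IP gave 1 with quantile normalization, 1 with edgeR, 5 with DESeq2 and 5 with only the libraries compared. The AGO5 IP against the AGO9 IP gave 2 with DESeq2.

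At day 35, the AGO5 IP against input gave 0 with edgeR, 2 with the combined column and 0 with DESeq2, and against the GFP-only IP it gave 0 with edgeR, on the miRNA-only scale and with only the libraries compared. The AGO9 IP against input gave 0 with edgeR and on the miRNA-only scale. Against the GFP-only IP it gave 5 with quantile normalization, 0 on the miRNA-only scale, 1 to 5 without 1 library, and 1 with pseudocount 0.5, no filter, edgeR, DESeq2, the 21 nt column and only the libraries compared. The AGO5 IP against the AGO9 IP gave 0 to 2 without 1 library. The change in AGO9 IP minus input between ages gave 1 with only the libraries compared. Of 26 calls of a locus, each was lost under at least 1 alternative and 1 changed direction: MIR172b in the AGO9 IP minus the GFP-only IP at day 35 was 3.14 on the log2 scale per 1000000 miRNA-gene reads. Of the 64 uncalled differences, 40 changed sign under at least 1 alternative. The causes were not tested, beyond the fewer libraries or features that an alternative used by construction.

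The difference in the percent of 21 nt reads moved with the loci summed. For MIR172a and MIR172b alone it was -1.20 points for day 35 minus day 7 with AGO5 and -3.35 with AGO9. It was 9.41 for the AGO5 IP minus input at day 7, 5.96 for the AGO9 IP minus input at day 7, 8.20 for the AGO5 IP minus input at day 35, 2.61 for the AGO9 IP minus input at day 35 and -4.71 for the AGO9 IP minus the GFP-only IP at day 35. For MIR172c, MIR172d and MIR172e the same differences were -7.65, -25.3, 1.10, 1.10, -3.43, -21.1 and -19.7 points. The ratio of MIR172e to the other loci used 21 nt reads alone as an alternative chosen after seeing the data, and stayed within 1 SD in 6 of the 7 groups with 2 ratios, the exception being the AGO9 IP at day 7.

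The replicate block gave 1 called locus in input between the ages, 2 for the GFP-only IP minus input at day 7 and 4 for the AGO9 IP minus the GFP-only IP at day 35. The replicate numbers were taken as names and not as a pairing: over 28 pairs of groups, the correlation of same-numbered deviations ran from -0.221 to 0.507 with a median of 0.0324, and input numbers stand for plant lines. Depth limits the low values, since 3 reads were worth up to 0.838 RPM in the GFP-only libraries at day 35.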
